A study of Mus musculus with 8 samples.

Results

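The genes followed here encode serum response factor (SRF) and the partner proteins that switch it on. They are Mkl1, Mkl2 and Myocd, the myocardin-related coactivators (MRTFs), Srf itself, and Elk1, Elk3 and Elk4, the ternary complex factors (TCFs). All 7 were found by symbol among the 53735 symbols of the count tables, and 6 of the 7 had enough reads to be tested. Mkl1 is the gene deleted in the KO mice, so its level in every library is given first.

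SRF is a MADS-box protein that binds a DNA element called the CArG box and activates genes weakly on its own. MRTFs are held in the cytoplasm by monomeric actin, and when actin polymerises they enter the nucleus and drive genes of the cytoskeleton and of adhesion through SRF. TCFs are ETS-domain proteins that sit beside SRF, are switched on by phosphorylation, and drive immediate early genes. Elk3 is known mainly as a repressor until it is phosphorylated. Both partner families contact the same face of SRF, and Srf is itself one of the genes SRF acts on.

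RNA-seq was performed on bone marrow derived macrophages (BMDMs), which are marrow cells grown into macrophages in culture for 7 days. The marrow came from mice that had received angiotensin II (Ang II) at 1.44 mg/kg/day from an implanted pump for 7 days. WT mice were Mkl1+/+, Apoe-/- and KO mice were Mkl1-/-, Apoe-/-, so by the labels every group carried the deletion of Apoe, the apolipoprotein E gene, and every group had received Ang II. Apoe reads were nonetheless counted, at means of 7.35 and 3.16 CPM (counts scaled to the effective size of each library) in WT and 19.5 and 7.93 CPM in KO of experiments 1 and 2, and were higher in KO in both, by 1.40 (adjusted p 0.0230) and 1.33 (adjusted p 0.0425) on the log2 scale by the edgeR test. Counts per gene do not show which allele such reads came from. The Mkl1 deletion is global and present in all cells from the start of development, and all mice were on the C57BL/6J background. By the study's methods, the mice given Ang II were males aged 6 months. The 8 libraries form 2 experiments, the first with WT libraries 1 and 2 and KO libraries 5 and 6, the second with WT libraries 3 and 4 and KO libraries 7 and 8. What sets the 2 experiments apart beyond their number is not given in the sources used here, nor is whether each library came from a mouse of its own, so p-values measure only the spread between these libraries.

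Between 33977799 and 41584540 counts were deposited per library. The 10 macrophage markers summed to between 19024 and 38374 CPM in every library, and neutrophil, dendritic and lymphoid markers to at most 1.62 CPM, with Cd3e at 0 throughout. Lyz2 alone gave 7634 to 24013 CPM of the macrophage sum, and single markers differed with genotype, with 5 higher and 2 lower in KO of experiment 1 and 4 higher and 2 lower in experiment 2. These are 70.0% and 60.0% of the 10, against 41.3% and 31.7% of all tested genes. Adgre1 (-2.12 and 0.91 on the log2 scale in experiments 1 and 2), Itgam (-1.04 and 1.34) and Csf1r (0.82 and -1.28), named after their values were seen, changed in opposite directions. The part of these shifts in the values of the factors was not tested. The 9 fibroblast markers reached 223 to 294 CPM in KO libraries 5 and 6 and 2.53 to 13.9 CPM in the other 6 libraries. In experiment 1, 6 of the 7 fibroblast markers tested were higher in KO (85.7%, against 41.3% of all tested genes). The other, Dcn, was at 2.27 on the log2 scale with an adjusted p of 0.0735. Lum and Thy1 had too few reads to be tested, at no more than 0.0535 and 0.107 CPM in any library. The 9 smooth muscle and pericyte markers reached 27.5 to 33.7 CPM in KO libraries 5 and 6 and 6.94 to 21.5 CPM elsewhere, with Cnn1, Lmod1 and Rgs5 at 0 in 1 or more groups. Over all tested genes, the KO group of experiment 2 lay nearer to the WT group of experiment 1 (SD of the log2 differences 0.434) than to its own WT (0.896) or to the other KO group (1.02), and the WT groups lay 0.870 apart. Of 2430 genes that passed the test in both experiments, 974 changed in the same direction and 1456 in opposite directions. Results are therefore given within each experiment.

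The Srf promoter is shown because it carries the element that Srf's own product binds. Of the 7 genes, 6 had a promoter entry in RefSeq, covering 250 bases before to 50 after each start. The CArG box was searched on both strands, which read alike for this motif, as CC, any 6 of A or T, then GG. It occurred in 535 of 32817 mouse promoters (1.63%). Among the 6 genes with an entry, Srf held it, and Srf was 1 of 5 genes (0.0185% of 26994) with 2 or more. The stretch below runs from 150 to 21 bases before the Srf start, at chr17:46556183-46556312 on the minus strand of GRCm38.p6, with both CArG boxes in capitals.
Srf promoter: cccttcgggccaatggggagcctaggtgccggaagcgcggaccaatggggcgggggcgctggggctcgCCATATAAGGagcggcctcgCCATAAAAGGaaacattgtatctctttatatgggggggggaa
The boxes start 82 and 62 bases before the start site. An ETS core, CCGGAA on either strand, lies 122 bases before it, and the same core was found in promoters of Elk4 and Mkl2 and in 14.9% of all promoters. These are matches of letters, and binding was not measured.

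For comparison, 7 of the 26 listed cytoskeletal MRTF-SRF target genes with a promoter entry (26.9%) held a CArG box. The windows below show 5 of these genes, whose mRNA values are given further on, each of 30 bases on the gene's own strand with the box in capitals.
Actg1, chr11:120348566-120348595: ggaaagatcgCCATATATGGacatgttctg
Vcl, chr14:20929161-20929190: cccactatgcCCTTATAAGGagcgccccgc
Lima1, chr15:99820177-99820206: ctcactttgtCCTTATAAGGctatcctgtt
Cnn2, chr10:79988534-79988563: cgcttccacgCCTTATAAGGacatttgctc
Myl9, chr2:156775293-156775322: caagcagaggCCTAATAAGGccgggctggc
Vcl, Lima1 and Cnn2 share the same 10 letters in their boxes, and Actg1 and Myl9 differ from them.

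Mkl1, named Mrtfa in current annotation, lies at chr15:81012281-81190757 on the minus strand of GRCm38 and has 10 annotated transcripts. In experiment 1 its level was 25.7 and 27.1 CPM in WT and 19.3 and 20.7 CPM in KO. In experiment 2 its level was 26.9 and 29.7 CPM in WT and 14.6 and 10.5 CPM in KO. All 4 KO libraries were below all 4 WT libraries, yet none was near 0, and the KO libraries of experiment 2 were lower than those of experiment 1. Over both experiments WT averaged 27.3 ± 1.66 CPM and KO 16.3 ± 4.66 CPM (SD, n = 4 each).

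The edgeR quasi-likelihood test gave Mkl1 a log2 fold change of -0.40 in experiment 1 (SE 0.15, 95% confidence interval -0.75 to -0.05), with an adjusted p of 0.0669, which missed the threshold of 0.05. With the 4 libraries of experiment 1 fitted alone, it passed, at -0.41 with an adjusted p of 0.00280, and over 14 alternatives the adjusted p ran from 0.00280 to 0.252. In experiment 2 Mkl1 fell by 1.17 on the log2 scale (SE 0.15, interval -1.53 to -0.81, adjusted p 0.00152), and this call held under all 14 alternatives tried. The 2 effects differed by -0.77 (SE 0.21, adjusted p 0.0245), a call lost without WT library 1, 2 or 4 or KO library 5 or 6 (-0.82 to -0.70). Between the KO groups Mkl1 was lower in experiment 2, at -0.67 (SE 0.15, adjusted p 0.0139), a call lost without KO library 5 (-0.72) or 6 (-0.62). Between the WT groups the difference was 0.10 (adjusted p 0.663). Fibroblast markers also stood higher in the KO libraries of experiment 1, by a median of 5.11 on the log2 scale over WT, and their part in the Mkl1 reads of these libraries was not tested. In bulk RNA, fewer cells of a type and less RNA per cell cannot be told apart.

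Reads were counted per gene, and such counts cannot separate transcripts of an intact allele from those of an altered one. Which exons the knockout allele lacks is not given in the sources used here. The study reported loss of MKL1 in KO aortas, using qRT-PCR, Western blot and immunostaining. It also ran qRT-PCR for Mkl1 on BMDMs of WT and KO mice given Ang II. The study's own qRT-PCR for mouse Mkl1 reads only a short piece of the gene, and its primers are shown to place it.
Mkl1 forward primer: cctgctcccacactcatc
Mkl1 reverse primer: ccccttgtcctgcttctg
They match GRCm38 at chr15:81020168-81020185 and chr15:81018354-81018371, in coding sequence of adjoining exons (exons 7 and 8 of transcript Mrtfa-201). The product is 147 bases long, against 6.11 kb of exon sequence over the gene. Both primers matched 4 of the 10 Mkl1 transcripts and no transcript of another gene.

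Mkl2 encodes MRTF-B, the closest relative of the deleted coactivator, and lies on chromosome 16. WT libraries 1 to 4 gave it 43.9, 48.0, 37.7 and 48.5 CPM. KO libraries 5 to 8 gave it 67.8, 68.9, 63.5 and 57.6 CPM. All KO libraries were above all WT libraries, in both experiments. Mkl2 rose by 0.57 on the log2 scale in experiment 1 (SE 0.12, interval 0.28 to 0.86, adjusted p 0.00876) and by 0.49 in experiment 2 (SE 0.12, interval 0.20 to 0.78, adjusted p 0.0210). The difference between the 2 effects was -0.08, with an interval of -0.49 to 0.32 and an adjusted p of 0.736. Fitted over both experiments with the experiment as a term, the rise was 0.53 (SE 0.10, adjusted p 0.0254), and the mean went from 44.5 ± 5.01 to 64.4 ± 5.13 CPM (SD, n = 4 each). That call was lost under 6 of 15 alternatives, without WT library 1 or 2 or KO library 5, 6 or 7 and with no experiment term (adjusted p 0.0750 to 0.153). The call of experiment 1 was lost without WT library 1 (0.51, adjusted p 0.0741). The call of experiment 2 was lost without WT library 3 (0.32), without KO library 7 (0.40) and with that experiment fitted alone, and its adjusted p ran from 0.000444 to 0.0893 over 14 alternatives. Exons of Mkl2 share 162 bases with Gm15738 on the opposite strand, whose reads were not analysed here.

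Mkl1 made up a smaller share of the reads of the MRTF pair in every KO library than in any WT library. Its share of Mkl1 plus Mkl2 reads was 36.9% (95% Wilson interval 35.2 to 38.7), 36.1% (34.2 to 38.0), 41.6% (39.6 to 43.6) and 37.9% (36.1 to 39.8) in WT libraries 1 to 4. In KO libraries 5 to 8 it was 22.2% (20.8 to 23.6), 23.1% (21.8 to 24.5), 18.7% (17.4 to 20.1) and 15.4% (14.1 to 16.8). Intervals cover counting error only, and no WT interval touched a KO interval. Per kb of exon the 2 genes together stood at 9.43 ± 0.734 CPM per kb in WT and 9.83 ± 1.33 in KO (SD, n = 4 each). In experiment 1 the sum was 9.09 and 9.78 CPM per kb in WT and 10.7 and 11.0 in KO, with KO above WT. In experiment 2 it was 8.59 and 10.3 CPM per kb in WT and 9.46 and 8.12 in KO, where the groups overlapped. Protein levels were not measured here.

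**Figure D1:**
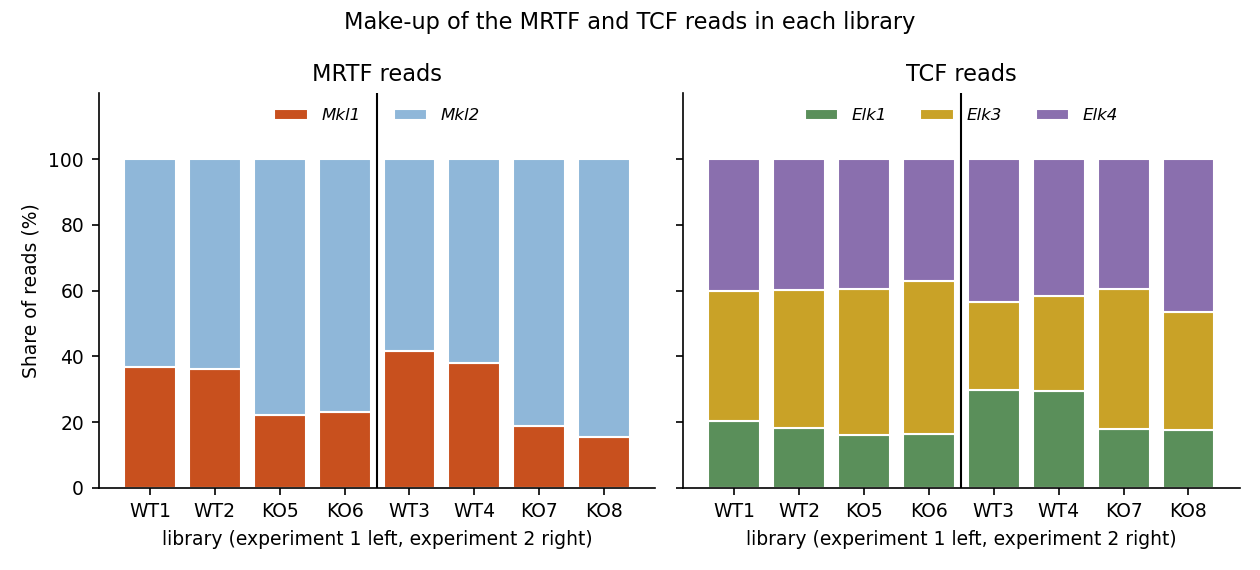
Stacked bars give the share (%) of MRTF reads (left, Mkl1 and Mkl2) and TCF reads (right, Elk1, Elk3 and Elk4) in each of the 8 libraries, with experiment 1 left and experiment 2 right of the line. Mkl1 held 36.1 to 41.6% of MRTF reads in WT and 15.4 to 23.1% in KO, while Elk3 held its smallest shares of TCF reads, 26.8% and 29.0%, in the WT libraries of experiment 2.

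Myocd encodes myocardin, the coactivator of heart and smooth muscle. It had 0 counts in 7 libraries and 1 count in KO library 6. A count of 0 allows up to 3 counts, which is 0.0723 to 0.0881 CPM in these libraries. This limit is for a count of 0 and does not bound the level in KO library 6. The Myocd counts themselves were under 3 in every library, so no fold is given. MRTF reads in these cells were thus reads of Mkl1 and Mkl2.

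Srf, at chr17:46548329-46556175, gave 36.9, 35.5, 41.6 and 41.9 CPM across WT libraries 1 to 4. KO libraries 5 to 8 gave 27.8, 26.8, 33.1 and 27.8 CPM. The groups did not overlap, and the highest KO library was number 7. Srf, whose promoter was shown above, fell by 0.41 on the log2 scale in experiment 1 (SE 0.10, interval -0.63 to -0.18, adjusted p 0.0128) and by 0.46 in experiment 2 (SE 0.10, interval -0.68 to -0.23, adjusted p 0.0103). The effects differed by -0.05 (interval -0.37 to 0.27, adjusted p 0.799). Over both experiments the fall was -0.43 (SE 0.08, adjusted p 0.0237), from 39.0 ± 3.28 to 28.9 ± 2.84 CPM (SD, n = 4 each). That call was lost under 7 of 15 alternatives, without any 1 of the WT libraries or KO library 5 or 6 and with no experiment term (adjusted p 0.0525 to 0.161). In experiment 1 the adjusted p lay between 0.0536 and 0.0849 when any 1 of its own 4 libraries was left out, and in experiment 2 it ran from 0.00303 to 0.0695 over 14 alternatives, passing in 13.

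**Figure D2:**
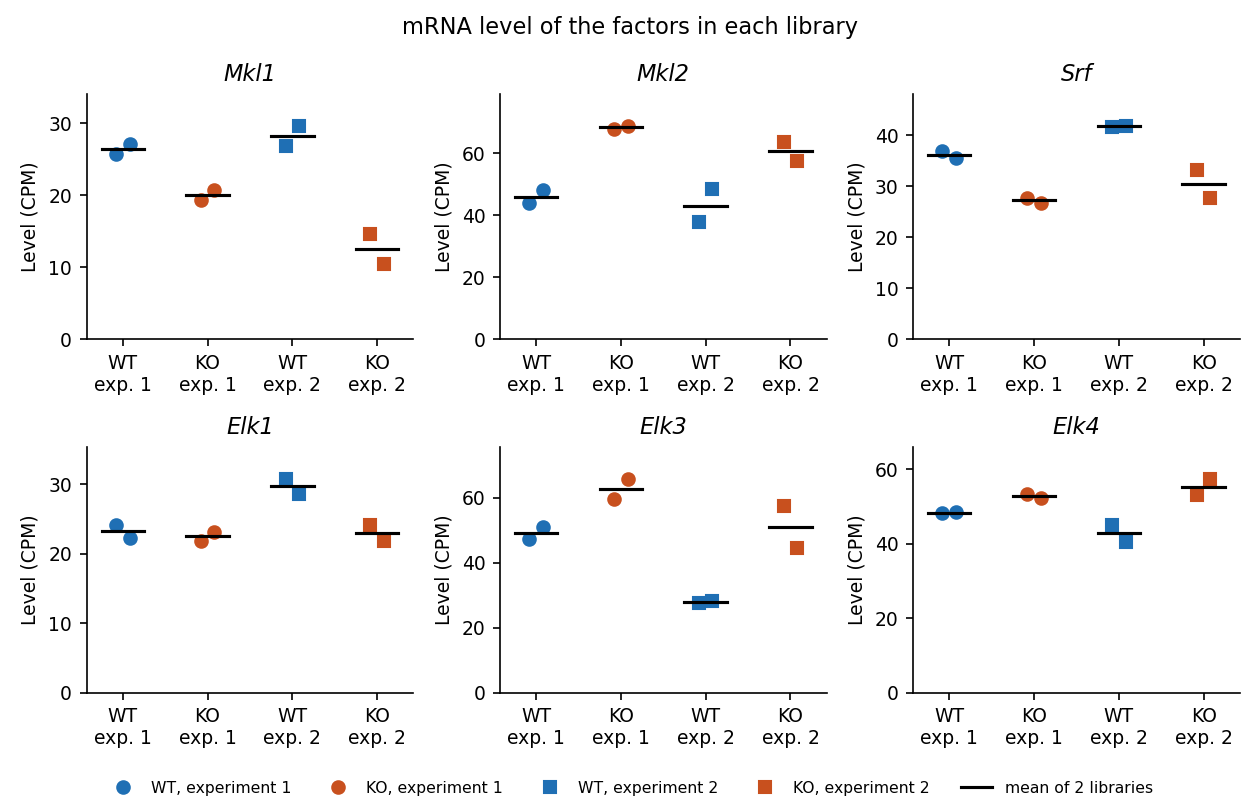
Points give the level (CPM) of each detected gene in each library, split by genotype and experiment, and lines give the mean of 2 libraries. All 4 KO libraries lie below WT for Mkl1 and Srf and above WT for Mkl2 and Elk4, while KO and WT overlap for Elk1 and Elk3.

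Elk3 encodes the TCF also called Net. In experiment 1 it was at 47.3 and 51.0 CPM in WT and at 59.6 and 65.8 CPM in KO. In experiment 2 it was at 27.7 and 28.2 CPM in WT and at 57.4 and 44.6 CPM in KO. Within each experiment both KO libraries were above both WT libraries, but KO library 8 was below both WT libraries of experiment 1. The log2 fold change was 0.35 in experiment 1 (SE 0.12, interval 0.06 to 0.64, adjusted p 0.0531), which missed the threshold, and Elk3 rose by 0.87 in experiment 2 (SE 0.13, interval 0.58 to 1.16, adjusted p 0.00213), a call that passed under all 14 alternatives. The larger log2 fold change of experiment 2 stood beside a lower WT level there, and the part of that level was not tested. WT of experiment 2 was lower than WT of experiment 1 by -0.82 (SE 0.13, adjusted p 0.00322), against -0.30 between the KO groups (adjusted p 0.0994). The difference between the KO effects, 0.52 (SE 0.18, adjusted p 0.0485), lost its call under 11 of 13 alternatives. Exons of Elk3 share 316 bases with Cdk17 on the opposite strand, and whether counting used strand is not given in the sources used here. Cdk17 fell by 0.35 in experiment 1 (adjusted p 0.0144) and had a log2 fold change of 0.17 in experiment 2 (adjusted p 0.181), and the part of shared reads was not tested.

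Elk4 encodes the TCF also called SAP-1. WT libraries 1 to 4 held 48.1, 48.4, 45.1 and 40.4 CPM of it, and KO libraries 5 to 8 held 53.4, 52.2, 53.0 and 57.4 CPM. All KO libraries were above all WT libraries, by a narrow margin in experiment 1. The log2 fold change was 0.13 in experiment 1 (SE 0.08, interval -0.06 to 0.33, adjusted p 0.247) and Elk4 rose by 0.37 in experiment 2 (SE 0.08, interval 0.17 to 0.56, adjusted p 0.0140). The 2 effects differed by 0.24 (adjusted p 0.149), and the call of experiment 2 was lost without WT library 4 (0.29), without KO library 8 (0.31) and with that experiment fitted alone, with adjusted p from 0.00787 to 0.0897 over 14 alternatives. Exons of Elk4 share 104 bases with Gm29103 on the same strand and 84 with Mfsd4a on the opposite strand, whose reads were not analysed here.

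Elk1, the TCF on the X chromosome, stood at 24.2 and 22.3 CPM in WT and at 21.9 and 23.2 CPM in KO of experiment 1. In experiment 2 it stood at 30.8 and 28.6 CPM in WT and at 24.1 and 21.8 CPM in KO. KO and WT overlapped in experiment 1 and not in experiment 2, where WT was higher. The log2 fold change was -0.04 in experiment 1 (interval -0.27 to 0.18, adjusted p 0.743), and in experiment 2 Elk1 fell by 0.37 (SE 0.10, adjusted p 0.0230). WT libraries of experiment 2 were above those of experiment 1 by 0.35 (SE 0.10, adjusted p 0.0306). The call in experiment 2 was lost without WT library 3 (-0.32), without KO library 8 (-0.30) and with that experiment fitted alone, with adjusted p from 0.0206 to 0.102 over 14 alternatives. The call between the WT groups was lost without WT library 1 (0.41), 2 (0.30) or 3 (0.30), and without KO library 5 or 6 (0.35 each). Elk1 shares 76 exon bases with Uxt on the same strand, which fell by 0.52 in experiment 1 (adjusted p 0.0464) and had a log2 fold change of 0.05 in experiment 2 (adjusted p 0.840).

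In the WT libraries of experiment 2, Elk3 took its smallest and Elk1 its largest shares of the TCF reads. Elk3 took 39.6 and 41.9% of TCF reads in WT of experiment 1, 26.8 and 29.0% in WT of experiment 2, and 36.0 to 46.6% in KO. Elk1 took 20.2 and 18.3%, then 29.7 and 29.4%, and 16.2 to 17.9% in KO. The lowest Elk3 share, 26.8%, had a Wilson interval of 25.4 to 28.2%, and the lowest Elk1 share, 16.2%, one of 15.2 to 17.3%. Per kb, the summed TCF level was 20.5 ± 2.55 CPM per kb in WT and 25.2 ± 1.71 in KO (SD, n = 4 each). In experiment 1 the TCF sum was 22.4 and 22.9 CPM per kb in WT and 25.5 and 26.9 in KO. In experiment 2 it was 18.8 and 17.8 CPM per kb in WT and 25.4 and 22.8 in KO. KO was above WT within each experiment, and KO library 8 of experiment 2 was just below WT library 2 of experiment 1.

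**Figure D3:**
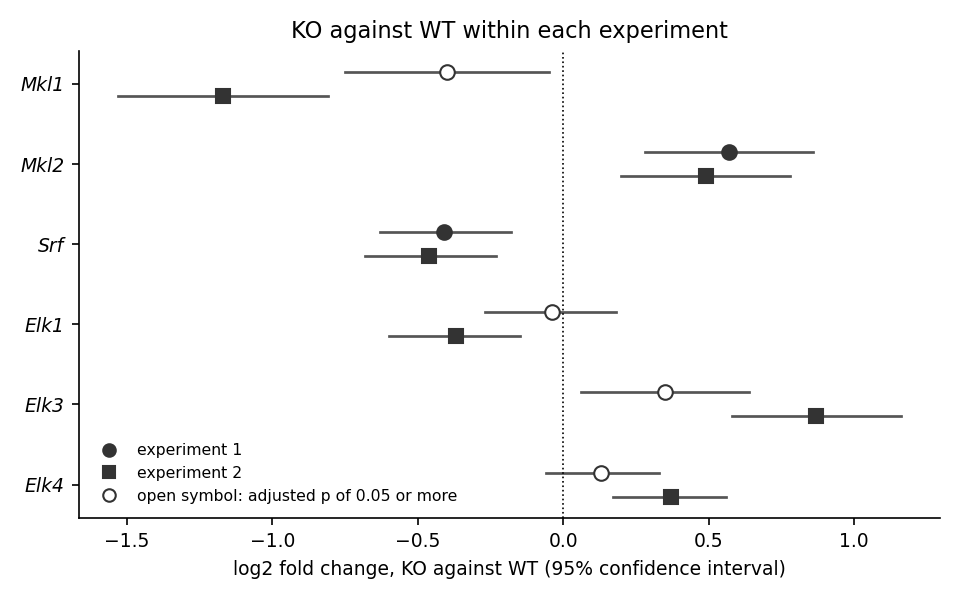
Symbols give the log2 fold change of KO against WT for each tested gene in experiment 1 (circles) and experiment 2 (squares), with 95% confidence intervals from edgeR, and open symbols mark an adjusted p of 0.05 or more. Every gene has the same sign in both experiments, except that Elk1 in experiment 1 turned to 0.05 under upper-quartile scaling and to 0.02 without WT library 1, and all intervals lie clear of 0 but those of Elk1 and Elk4 in experiment 1.

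Counted together, 2 of the 6 tested genes, Mkl2 and Srf, passed the test in experiment 1, where 41.3% of all 15618 tested genes did, and none did without WT library 1. In experiment 2 all 6 passed, against 31.7% of all genes, but 2 of 6 with that experiment fitted alone. The KO effects differed between experiments for 2 of 6 (Mkl1 and Elk3), near the 39.8% of all genes. Over both experiments 3 of 6 passed (Mkl2, Srf and Elk3), against 6.85% of all genes, with Mkl1 at -0.78 and an adjusted p of 0.0534. That count was 0 of 6 without WT library 1 or 2 or KO library 5 or 6, and 1 of 6 without WT library 3 or 4 or KO library 7, and 2 of 6 without KO library 8. Mkl2 and Srf, 2 of 6, passed in both experiments in the same direction, as 6.24% of all genes did. KO and WT did not overlap over the 8 libraries for 4 of 6, against 12.0% of all genes. Between experiments, 2 of 6 differed in WT (Elk1 and Elk3), near the 29.0% of all genes, and 1 of 6 in KO (Mkl1), where 33.6% of all genes did. These 6 genes are a small set chosen by name, and the shares are given as a description.

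Compared per kb of exon in WT, Srf had the highest level, at 13.5 ± 1.13 CPM per kb (SD, n = 4). Elk3 followed at 8.47 ± 2.72, Elk4 at 7.10 ± 0.578, Mkl2 at 4.95 ± 0.557, Elk1 at 4.91 ± 0.723 and Mkl1 at 4.47 ± 0.272 CPM per kb. The order of Elk3 and Elk4 in WT turned between the experiments, with means of 10.8 and 7.53 CPM per kb in experiment 1 and 6.14 and 6.67 in experiment 2, and their libraries did not overlap in either. Mkl2, Elk1 and Mkl1 averaged 5.11, 4.32 and 4.32 CPM per kb in WT of experiment 1, where libraries of Elk1 and Mkl1 overlapped, and 4.80, 5.51 and 4.62 in experiment 2, where Elk1 came before Mkl2 and libraries of each neighbouring pair overlapped. In KO the order was Elk3 at 12.5 ± 1.96, Srf at 9.98 ± 0.981, Elk4 at 8.43 ± 0.364, Mkl2 at 7.17 ± 0.570, Elk1 at 4.22 ± 0.210 and Mkl1 at 2.66 ± 0.762 CPM per kb. Elk3 was above Srf in KO of experiment 1, with means of 13.8 and 9.43 CPM per kb, and the libraries of the pair overlapped in experiment 2, with means of 11.2 and 10.5. Compared within a library, Srf was above Elk3 in each of the 4 WT libraries and below it in each of the 4 KO libraries, by as little as 9.62 against 9.80 CPM per kb in KO library 8. Lengths were exon unions of GENCODE M21, from 2.89 kb for Srf to 8.99 kb for Mkl2, and transcripts in use in these cells may be shorter.

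Genes whose levels followed those of each factor over the 8 libraries were looked up among 9071 well expressed genes. Mkl1 was followed most closely by Sdc1, which encodes syndecan-1 (Pearson r 0.947), by Cnn2, which encodes the actin-binding protein calponin 2 (0.942), and by Gas7 (0.929). Srf was followed by Lcp1, which encodes the leukocyte actin bundler L-plastin (0.986), by Brip1os (0.981) and by Mefv, which encodes pyrin (0.981). Mkl2 was followed by Ubqln2 (0.990), Tbccd1 (0.975) and Tbc1d2 (0.974), and Elk3 by Nhsl2 (0.995), Adcy2 (0.992) and Ikbip (0.987). Elk1 was followed by Il2rg (0.993), Vbp1 (0.988) and Kpna2 (0.985), and Elk4 by Erlec1 (0.989), Mtmr3 (0.988) and Herc1 (0.984). The 8 libraries fall into 4 groups and share genotype and experiment, so with so many genes high values of r arise easily, and these are descriptions.

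The targets of MRTF-SRF were listed as 30 cytoskeleton and adhesion genes, of which 28 were tested. In experiment 2, 15 of the 28 were lower in KO and 1, Pdlim7, was higher, which is 57.1% called against 31.7% of all genes, with a median log2 fold change of -0.83 against 0.00 over all genes. In experiment 1, 12 were higher and 11 lower, which is 82.1% called against 41.3% of all genes, with a median of -0.03 against 0.03, which turned to 0.06 under upper-quartile scaling, to 0.02 with no filter, and to 0.01 without KO library 5, where 7 were lower. With at least 10 counts required in every library, 22 were tested, 6 were higher and 11 lower, and the median was -0.26. Over both experiments the median was -0.19, and with a library left out it ran from -0.40 (without WT library 1) to -0.06 (without WT library 4). Of the 28 genes, 8 passed (28.6%, against 6.85% of all genes), all lower (3 to 5 without WT library 1, 2 or 4 or KO library 5 or 6). The same 8 were lower in the contrast of each experiment (beside the 6.24% of all genes called in both the same way). The list was chosen with results of these data known and is no independent evidence of a direction.

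Of the 8 consistent genes, Itga5, the fibronectin receptor subunit, was chosen by its p in each experiment. Its 4 WT values were 118, 102, 188 and 190 CPM, and its 4 KO values were 50.0, 51.4, 93.1 and 81.0 CPM, in the order of the library numbers. KO was below WT in each experiment, at -1.11 (SE 0.10, adjusted p 0.000383) and -1.12 (SE 0.10, adjusted p 0.000388). The other 7, named after their values were seen, were the cytoplasmic actins Actb (-0.97 and -1.08 in experiments 1 and 2) and Actg1 (-1.37 and -1.46), vinculin Vcl (-1.05 and -0.64), Lima1 (-1.48 and -0.56), tropomyosin Tpm4 (-0.76 and -1.17), Tagln2 (-0.66 and -0.47) and the actin filament disassembly factor Wdr1 (-0.78 and -0.76). Actg1, Vcl and Lima1 are those with a CArG box printed above.

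Of the other 20, 6 passed in both experiments with opposite signs and 3, named after their values were seen, passed in neither. These were Actn1 (adjusted p 0.674 and 0.303), Tpm1 (0.761 and 0.0918) and Zyx (0.939 and 0.836). Cnn2 went from a mean of 44.0 CPM in WT to 2.26 CPM in KO of experiment 2 (log2 fold change -4.28, SE 0.34, adjusted p 0.000236), but stood at 26.2 and 27.4 CPM in WT and KO of experiment 1 (0.07, adjusted p 0.873). Thbs1, a secreted matrix protein, went from 5.06 to 169 CPM in experiment 1 (5.06, SE 0.40, adjusted p 0.000215), and from 16.7 to 8.71 CPM in experiment 2 (-0.94, adjusted p 0.0777). The genes Acta2, Tagln, Tpm2, Myl9, Csrp1 and Pdlim5 rose in experiment 1 and fell in experiment 2. Myl9, a myosin light chain, stood at 0.0247 and 0.117 CPM in WT and at 3.13 and 5.79 CPM in KO of experiment 1, with WT library 1 under the limit of 3 counts. In experiment 2 it stood at 0.660 and 0.606 CPM in WT and at 0.0244 and 0 CPM in KO, with both KO libraries under the limit of 3 counts. Acta2 and Tagln are also smooth muscle markers, and fibroblast markers, Col1a1 (0.398 to 18.3 CPM) and Col3a1 (0.610 to 36.9 CPM) among them, rose in the same KO libraries. Their part in the rises of experiment 1 was not tested. In experiment 2 Col1a1 (adjusted p 0.830) and Col3a1 (adjusted p 0.838) reached at most 0.806 and 1.17 CPM in any library.

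**Figure D4:**
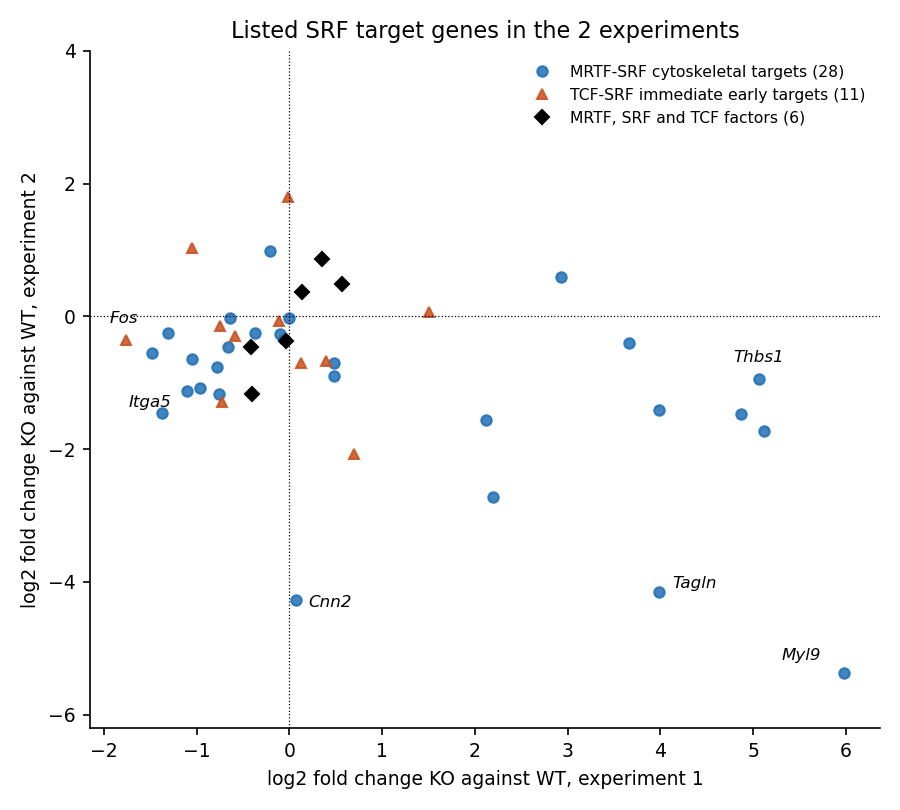
Each point is a gene with its log2 fold change of KO against WT in experiment 1 (x axis) and experiment 2 (y axis), for 28 MRTF-SRF targets (circles), 11 TCF-SRF targets (triangles) and the 6 tested factors (diamonds). Thbs1, Tagln and Myl9 lie far right with rises in experiment 1, Cnn2 lies near 0 in experiment 1 and at -4.28 in experiment 2, and the factors lie close to 0 beside them.

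Among 12 immediate early genes listed as TCF-SRF targets, 11 were tested. In experiment 1, 1 was higher and 3 lower in KO (median log2 fold change -0.11), and in experiment 2, 2 were higher and 3 lower (median -0.30). The median of experiment 1 was -0.57 under the filter at 10 counts, -0.55 without KO library 6 and -0.01 under upper-quartile scaling. That of experiment 2 was -0.56 without KO library 7 and -0.18 without KO library 8. The 36.4% and 45.5% called of the 11 stood near the 41.3% and 31.7% of all genes. Over 14 alternatives, 0 to 3 were higher and 3 to 5 lower in experiment 1, with 0 higher without WT library 1 or 2 or KO library 5 or 6, under DESeq2 and under the filter at 10 counts. In experiment 2, 1 was higher and 1 lower without KO library 8 or with that experiment fitted alone, and the median turned to 0.11 without WT library 3. Over both experiments 1 passed, Junb, an AP-1 subunit, which fell by 0.73 in experiment 1 (SE 0.11, adjusted p 0.00210) and by 1.29 in experiment 2 (SE 0.11, adjusted p 0.000298). Fos, another AP-1 subunit, fell by 1.76 in experiment 1 (adjusted p 0.000149), with -0.35 in experiment 2 (adjusted p 0.0595). Egr2, a zinc finger factor whose promoters hold CArG boxes, fell by 2.07 in experiment 2 (SE 0.40, adjusted p 0.00682), with 0.70 in experiment 1 (adjusted p 0.187).

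The regulators listed were kinases, cytoskeletal effectors and transport factors that act on MRTF or TCF activity. Of these 14, all tested, 2 were higher and 5 lower in KO of experiment 1 and 3 higher and 1 lower in experiment 2. These are 50.0% and 28.6% of the list, near the 41.3% and 31.7% of all genes. Over 14 alternatives, 0 to 4 were higher and 1 to 7 lower in experiment 1, with 0 higher and 1 to 3 lower without WT library 1 or 2 or KO library 5. In experiment 2, 0 were higher without WT library 1, 2 or 4 or KO library 5 or 6. With experiment 2 fitted alone by edgeR, 0 of the 14 passed in either direction, Map2k1 included, while 3 had an unadjusted p under 0.05. Map2k1, which encodes the kinase MEK1, was lower in both, at -0.30 (adjusted p 0.0167) and -0.45 (adjusted p 0.00406). Xpo1, the exportin that carries MRTFs out of the nucleus, fell by 0.47 in experiment 1 (adjusted p 0.00568), with -0.01 in experiment 2 (adjusted p 0.925).

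Of 16 other MADS-box and ETS genes, 2 were higher and 4 lower in experiment 1, and 6 higher and 4 lower in experiment 2 (1 lower without KO library 8, 2 without KO library 7, and 3 higher and 1 lower with that experiment fitted alone). These are 37.5% and 62.5% of the list, beside 41.3% and 31.7% of all genes. Without WT library 1 or 2 or KO library 5 or 6, 1 was higher and 2 lower in experiment 1. Fli1 rose in both, by 0.35 (adjusted p 0.0266) and 0.82 (adjusted p 0.00120). Spi1, which encodes PU.1 of macrophages and was named after its values were seen, fell by 0.60 (adjusted p 0.00142) and by 0.55 (adjusted p 0.00228), and Spib, at no more than 1.04 CPM, by 1.98 and 1.58. Ets2 fell by 3.07 in experiment 1 (adjusted p 0.000215), with -0.55 in experiment 2 (adjusted p 0.0977). Mef2c, a MADS-box relative of Srf, rose by 1.62 in experiment 1 (adjusted p 0.000993), with 0.25 in experiment 2 (adjusted p 0.359). Mef2d fell by 0.24 in experiment 1 (adjusted p 0.0397) and rose by 0.89 in experiment 2 (adjusted p 0.000353).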

How the data were processed

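RNA-seq libraries (TruSeq Stranded mRNA) of WT and KO BMDMs were sequenced by the authors, who deposited raw counts per gene, with 33977799 to 41584540 counts per library, and normalized counts. The submitters' processing notes name STAR 2.7.0f, featureCounts of Subread 1.6.4, DESeq2 1.22.1 and GRCm38. The annotation release and strand setting are not given in the sources used here. The deposited normalized counts (a signal) proved to be the raw counts over 1 factor per library, and served only to check the unit. Whether the factors were set in each experiment or over both was not tested. Counts were fitted with edgeR 4.0.16 in R 4.3.3 (TMM, filterByExpr, robust quasi-likelihood F test) with 1 mean for each genotype and experiment over all 8 libraries. This kept 15618 genes, over which p was adjusted by Benjamini-Hochberg with a threshold of 0.05. The effect over both experiments came from a fit with experiment and genotype as terms. SE was obtained from the fold change and its F value. CPM used TMM library sizes, and log2 CPM a prior count of 2.

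Replicate libraries differed by more than counting noise, so none was a copy. Chi-square per gene was 12.0 in KO and 15.9 in WT of experiment 1, against 80.4 in KO and 67.4 in WT of experiment 2. Replicates thus lay further apart in experiment 2. The main fit shared 1 estimate of the spread per gene over both experiments, so its SE and p do not show this difference. Tests were tried on simulated counts of 15618 genes with 200 changed. Each simulated gene had 1 mean and 1 spread over all libraries, apart from changes placed in KO of experiment 1. Far fewer genes were changed than the 6458 that passed in the data of experiment 1. Recovery of the KO effect of experiment 2 was not tried. For experiment 1, 71% of changes of 1 and 96% of changes of 2 on the log2 scale were recovered, with 19 false calls. For the difference between experiments, 46% and 89% were recovered, with 9 false calls.

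The genes, lists and tests were chosen with earlier results of these data known. Named from each list were the 2 genes with the smallest p in each experiment, and for each factor the 3 genes of highest r, and 1 gene that this rule names is not reported here. Alternatives were DESeq2 1.42.0, voom of limma 3.58.1, upper-quartile scaling, a filter at 1 count in total or at 10 counts per library, each experiment alone, no experiment term, the mean of the 2 within-experiment effects, and leaving out each library. Promoters are from RefSeq (GRCm38.p6), and gene positions and lengths from GENCODE M21.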

Additional observations from a re-analysis of the deposited data

Results flagged for a closer look

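The KO effect on Mkl1 differed between experiments by -0.77 on the log2 scale, experiment 2 minus experiment 1, in a direct test of the difference (adjusted p 0.0245). Both experiments had KO below WT, and the adjusted p of the difference ran from 0.00106 to 0.0860 over 13 alternatives.

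The KO effect on Elk3 differed by 0.52 in the same test (adjusted p 0.0485), and the call was lost under 11 of 13 alternatives.

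Srf stood at 33.1 CPM in KO library 7, far from the other 3 KO libraries at 26.8, 27.8 and 27.8 CPM by Dixon's test over the 4 KO libraries of both experiments. Chance gives such a gap in about 1 in 20 groups of like samples, and these 4 span 2 experiments. Within experiment 2 the 2 KO libraries stood at 33.1 and 27.8 CPM, too few for the test.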

How the results depend on the processing

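Of the log2 fold changes of the 6 tested factors recomputed under settings other than leaving out a library, 175 kept their direction and side of the threshold, 13 crossed to pass it, 12 fell short of it and 4 changed sign. With a library left out, 228 kept both, 5 came to pass, 49 fell short and 6 changed sign. The causes were not tested. Mkl1 and Elk3 in experiment 2 passed under all alternatives run. No paired analysis was possible because the labels number the libraries 1 to 8 and WT and KO share no number.

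In experiment 1, 4 factors passed instead of 2 with no filter or with experiment 1 alone, where Mkl1 was at -0.41 in both (adjusted p 0.0195 and 0.00280). Elk1 there turned to 0.05 under upper-quartile scaling. Leaving out libraries gave 3191 (without KO library 5) to 7123 genes called, against 6458, and 0 (without WT library 1) to 4 factors (without KO libraries 7 or 8). Mkl1 ranged from -0.45 to -0.35, and Elk1 from -0.10 to 0.02 (without WT library 1). Experiment 2 alone called 2358 genes, against 4955, and 2 factors, Mkl1 and Elk3, against 6.

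For the difference between experiments, 1 factor (Mkl1) passed under DESeq2, voom, upper-quartile scaling and the filter at 10 counts, against 2. Leaving out libraries gave 0 to 2 factors, with Mkl1 from -1.03 to -0.55, losing its call without WT library 1, 2 or 4 or KO library 5 or 6 (adjusted p 0.0578 to 0.0860). Mkl2 ranged from -0.25 to 0.11 (without WT library 4) and Srf from -0.17 to 0.07 (without KO library 8).

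Over both experiments, against 1070 genes and 3 factors, DESeq2 called 2557 genes, the mean of the within-experiment effects 4962 genes and 5 factors, and edgeR without an experiment term 4 genes and 0 factors (3247 genes at an unadjusted p under 0.05). Mkl1 passed at -0.79 with DESeq2, no filter or the mean effects and at -0.78 with voom (adjusted p 0.00253, 0.0379, 0.00198 and 0.0496). Leaving out libraries gave 231 (without WT library 1) to 1128 genes and 0 to 2 factors, with 0 without WT library 1 or 2 or KO library 5 or 6. The listed MRTF-SRF targets called lower over both ranged from 3 (without KO library 5) to 12 (mean effects), with 0 without an experiment term, against 8.

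Between the WT groups, leaving out libraries gave 1708 (without WT library 2) to 5253 genes, against 4533, and 1 to 2 factors, with Mkl2 from -0.29 to 0.08 (without WT library 3), and no filter left 1 factor. Between the KO groups it gave 1741 (without KO library 5) to 5706 genes, against 5240, and 0 to 2 factors, with Elk1 from -0.04 (without KO library 7) to 0.10 (without KO library 8), and at -0.02 without KO library 5. Upper-quartile scaling called 2 factors there and turned Elk1 to -0.07 and Elk4 to -0.04, and the filter at 10 counts turned Elk1 to -0.01. With upper-quartile scaling, calls were higher in 61.4% against 50.3% in experiment 1, 65.0% against 52.4% over both and 38.5% against 52.0% between the KO groups.

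Depth limits Myocd, which was at or under 3 counts in every library. The 2 libraries per group and experiment limit the rest.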
